A study of Rattus norvegicus with 24 samples.

Results

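The genes described here are 32 markers of astrocytes, out of 23950 genes with a value in every library. They were chosen as a list of symbols, 26 in a set called mature and 6 in a set called immature or reactive (Gfap, Vim, Fabp7, Sox9, Fgfr3 and Slc1a3). The names only label the 2 sets, and whether each gene tracks maturity or reactivity was not tested. Each of the 32 symbols matched 1 gene. RNA-Seq of the nucleus accumbens (NAc), a ventral striatal region of the reward pathway, was performed on 24 Sprague Dawley rat pups at P14, 4 pups from separate litters in each of 6 groups. The study asked how in utero and postnatal exposure to the opioid oxycodone (oxy) affects offspring over 2 generations. In the in utero group (IUO), F0 females were gavaged with oxy at 10 mg/kg/day for 5 days and at doses rising by 0.5 mg/kg/day for 10 days to 15 mg/kg/day, and this dose was kept through mating, pregnancy and nursing. In the postnatal group (PNO), dams were gavaged with 15 mg/kg/day only from birth of the litter to weaning, and the saline controls (SAL) received no oxy. F1 animals of either exposure were never dosed themselves and were bred to give the F2 pups, so IUO and PNO in F2 name a lineage. Pups were males or females taken at random, and the sex of each is not given.

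Astrocytes clear glutamate and GABA from the synapse with membrane transporters, turn glutamate into glutamine, wrap vessels with end-feet rich in water channels and are joined to each other by gap junctions. In the rodent forebrain they mature over the first postnatal weeks, when radial glia genes such as Fabp7 decline and the glutamate transporter Slc1a2 builds up, while reactive astrocytes raise the filament genes Gfap and Vim. Astrocytic glutamate uptake in the NAc is known for its link to drug seeking in adult animals.

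Values are FPKM, a level scaled for transcript length and library size, as deposited. Library totals ran from 535866 to 766781 FPKM, and read depth is not known. Projection neuron genes of the striatum were present, with Ppp1r1b at 167 to 549, Penk at 81.5 to 326, Drd1 at 6.87 to 27.2 and Drd2 at 15.8 to 69.2 FPKM over the 24 libraries. The 3 defining astrocyte markers were also present in every library, with median levels of 65.3 FPKM for Gfap, 90.8 for Aqp4 and 73.7 for Slc1a2. Among the members, the secreted protease inhibitor Cst3 had the highest median level (2122 FPKM, rank 17 among all genes) and the tight junction gene Cldn10 the lowest (4.77 FPKM). In whole tissue, fewer astrocytes and less RNA per astrocyte cannot be told apart.

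Each comparison was tested with limma on log2(FPKM + 0.1), and all fold changes are differences on that scale with their standard error. All 32 members passed the filter on low values in each of the 9 comparisons of 4 against 4 libraries. After adjustment over all genes tested, 0 members had a p under 0.05 in any of the 9 comparisons, and the smallest adjusted p was 0.0884. Without adjustment, a p under 0.05 was reached by 16 of the 288 member and comparison pairs. Between F1 IUO and F1 SAL, 0 of 32 members had an unadjusted p under 0.05, where 3.91% of all genes did (0% after adjustment). The count was 2 of 32 between F1 PNO and F1 SAL (13.9% of all genes; 0% adjusted) and 5 of 32 between F1 IUO and F1 PNO (16.5% of all genes, 0.133% adjusted). In F2 it was 1 between IUO and SAL (8.49% of all genes, 0% adjusted), 2 between PNO and SAL (10.8%, with 0.00576% adjusted) and 1 between IUO and PNO (7.07%, with 0% adjusted). Across generations it was 1 between F2 and F1 SAL (8.48%, with 0.0343% adjusted), 3 between F2 and F1 IUO (15.0%, with 0% adjusted) and 1 between F2 and F1 PNO (4.76%, with 0.0288% adjusted). In these 9 fits the share of members was below that of all genes, while with 1 library left out it was above in 17 of 72 fits, and in 13 of 78 under other alternatives.

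**Figure D1:**
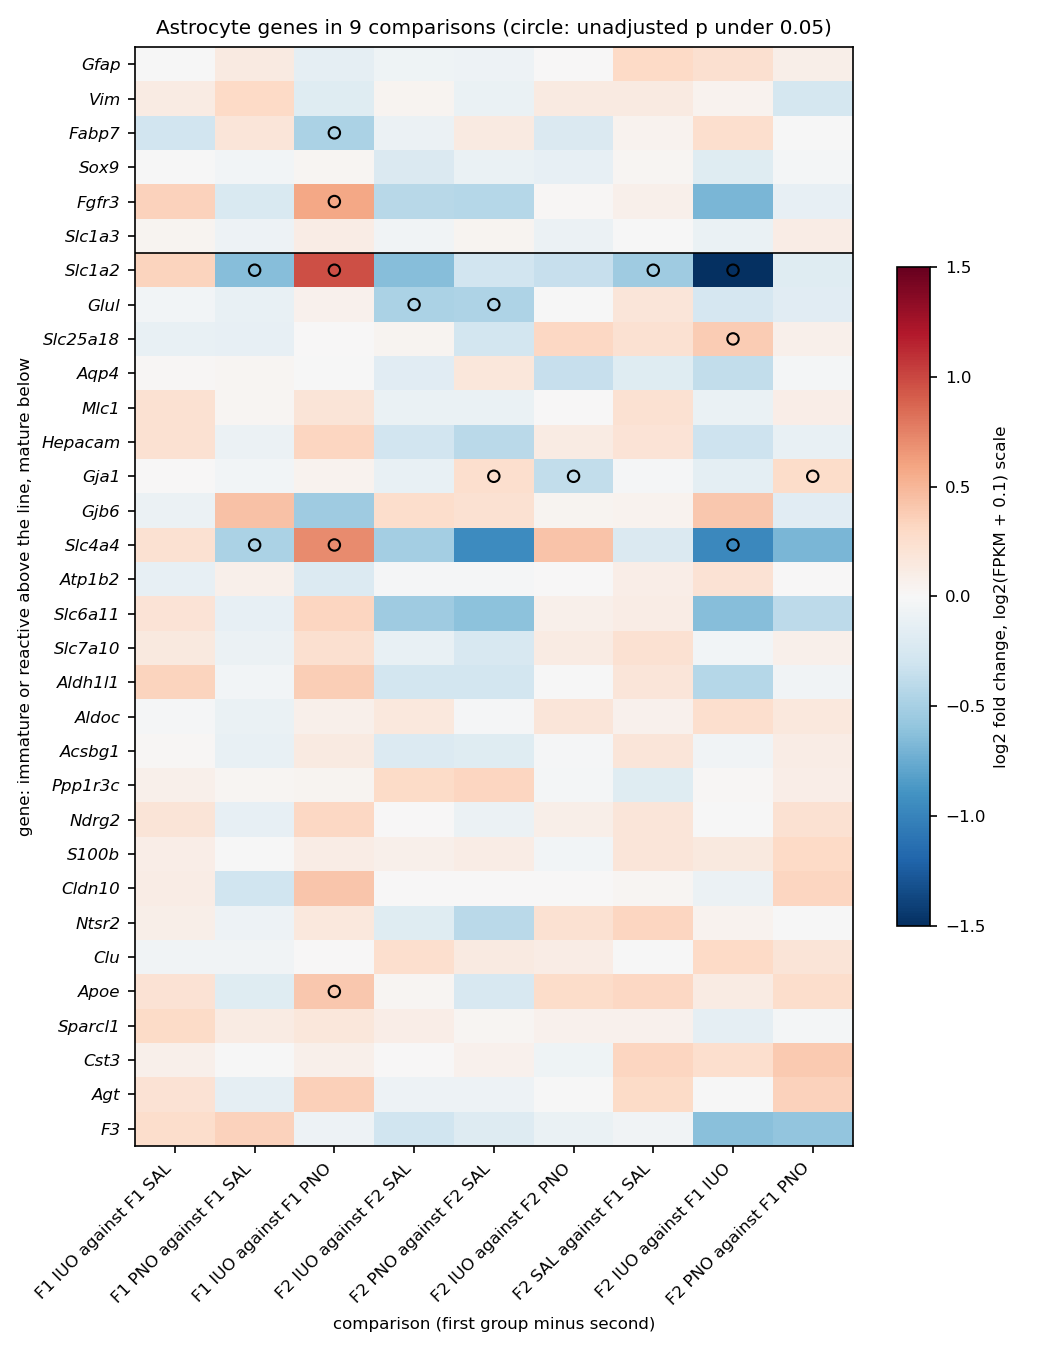
Log2 fold change of each of the 32 astrocyte genes (rows, immature or reactive genes above the black line) in the 9 comparisons (columns, first group minus second), on the log2(FPKM + 0.1) scale. Circles mark the 16 pairs with an unadjusted p under 0.05, and the darkest blue field is Slc1a2 between F2 IUO and F1 IUO (-1.503).

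Slc1a2, the main glutamate transporter of forebrain astrocytes, varied more than all other members but Slc4a4, from 15.3 to 157 FPKM. In F1 it stood at 121, 93.4, 58.2 and 118 FPKM in the SAL libraries, 61.1, 50.8, 56.95 and 75.7 FPKM in PNO and 85.2, 135, 157 and 109 FPKM in IUO. Every F1 IUO library was above every F1 PNO library, while 1 SAL library lay within the PNO range. In F2 the gene was at 71.7, 55.4, 78.8 and 57.01 FPKM in SAL, 15.3, 86.5, 56.6 and 106 FPKM in PNO and 38.3, 54.6, 75.9 and 19.01 FPKM in IUO. The lowest values of all 24 were those of F2 PNO 1 and F2 IUO 4, and the F2 groups overlapped.

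The mean of Slc1a2 in F1 was 121 ± 31.2 FPKM (SD, n = 4) in IUO and 61.1 ± 10.6 FPKM in PNO. The log2 fold change was 0.97 ± 0.19 (limma adjusted p = 0.0884, exact permutation p = 0.0286, the smallest that 4 against 4 libraries allow in a two-sided test). F1 PNO was lower than F1 SAL (97.6 ± 29.02 FPKM) by a log2 fold change of -0.63 ± 0.23 (limma adjusted p = 0.288, exact permutation p = 0.0857). That difference lost its unadjusted p under 0.05 without F1 SAL 1 (log2 fold change -0.51), F1 SAL 4 (-0.52) or F1 PNO 2 (-0.55), and with all 24 libraries in 1 fit (-0.63). Between F1 IUO and F1 SAL the fold change was 0.33 ± 0.26 (limma adjusted p = 0.999). Across generations, F2 IUO was lower than F1 IUO with no overlap of the libraries, at -1.503 ± 0.37 (limma adjusted p = 0.222, exact permutation p = 0.0286). With the ribosomal protein level as a covariate this difference was -0.71, with an unadjusted p above 0.05 in limma. F2 SAL was also lower than F1 SAL, by -0.53 ± 0.23 (limma adjusted p = 0.585, exact permutation p = 0.114). This second difference kept an unadjusted p under 0.05 when F1 SAL 3 or F2 SAL 3 was left out and lost it without any of the other 6 libraries, with log2 fold changes from -0.58 to -0.41. It also lost it with no filter on low values (-0.53), with all 24 libraries in 1 fit (-0.53) and with the replicate number as a block. The same was so with the ribosomal protein level described below as a covariate (-0.37) and without the 3 libraries highest in it (-0.45). For Slc1a2 the drop from F1 to F2 in IUO exceeded that in SAL by -0.97 ± 0.48 (limma adjusted p = 0.924 for the difference between generations). All these comparisons share libraries and are not independent of each other.

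**Figure D2:**
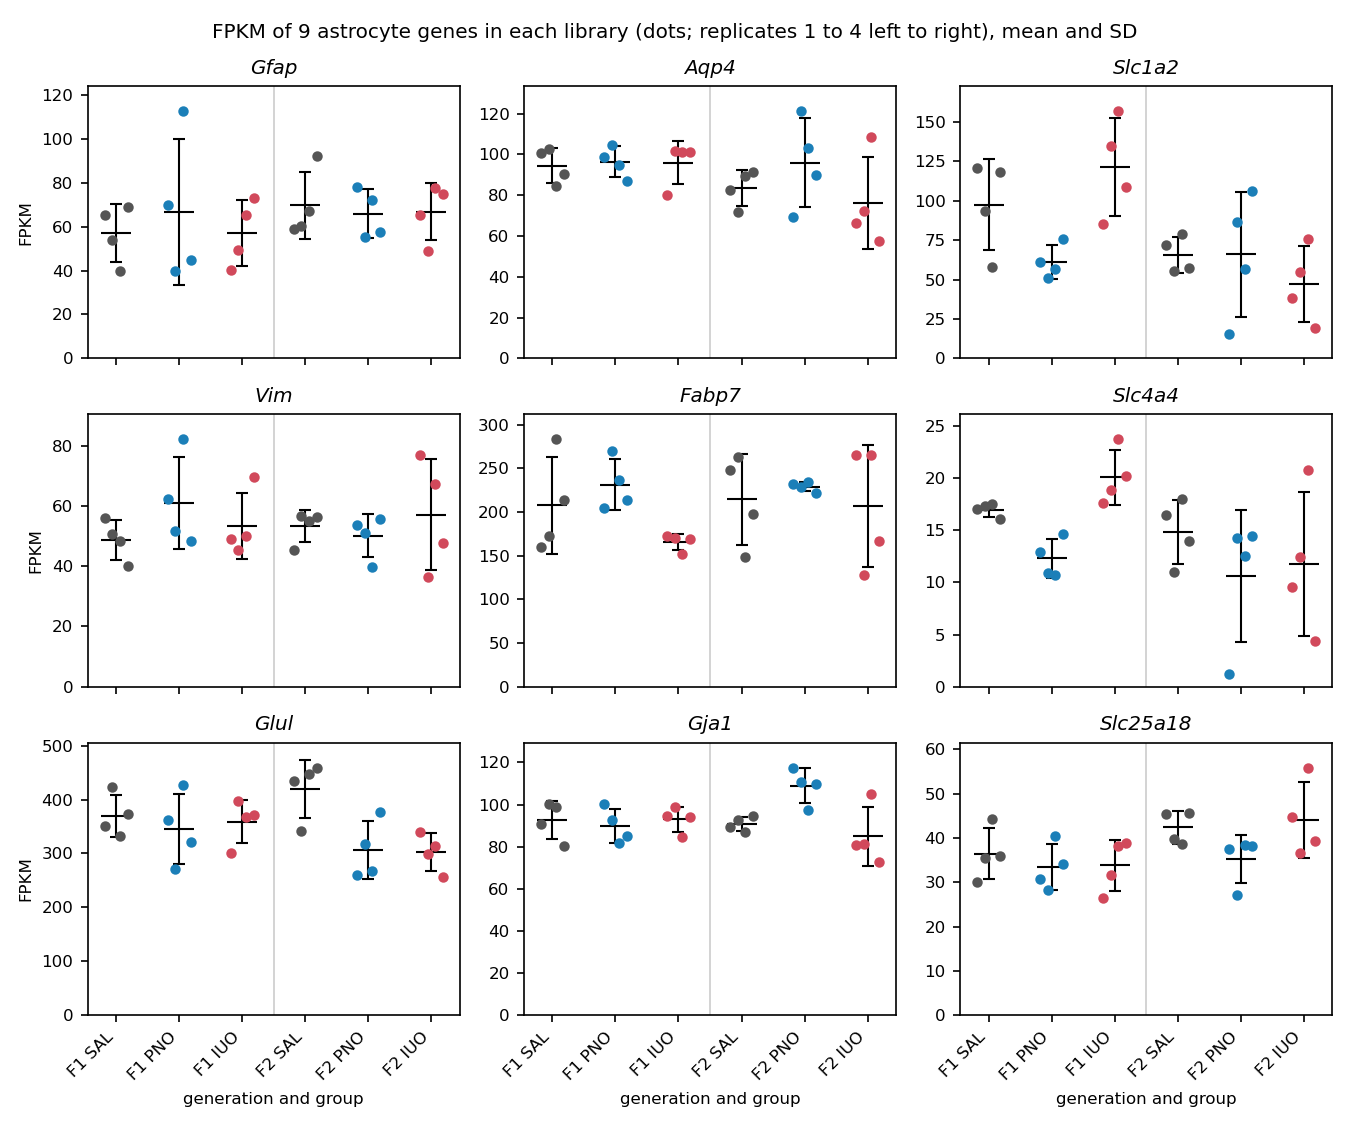
FPKM (vertical axes, from 0) of 9 astrocyte genes in the 6 groups (horizontal axes). Each dot is 1 library, and the black bars give the mean and SD of 4 libraries. Slc1a2 and Slc4a4 were higher in all 4 F1 IUO libraries than in all 4 F1 PNO libraries, and Glul was lower in all 4 F2 IUO libraries than in all 4 F2 SAL libraries.

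Glul encodes glutamine synthetase, which converts the glutamate that astrocytes take up. Its values in F2 were 434, 341, 446 and 459 FPKM in SAL, 261, 318, 268 and 378 FPKM in PNO and 340.5, 299, 314 and 257 FPKM in IUO. In F1 they were 351, 423, 332 and 374 FPKM in SAL, 362, 272, 426 and 321 FPKM in PNO and 302, 397, 367 and 371 FPKM in IUO. All 4 F2 IUO libraries lay below the lowest F2 SAL library, whereas F2 PNO 4 lay above it. Glul was at 420.3 ± 53.8 FPKM (SD, n = 4) in F2 SAL, 306 ± 54.1 in F2 PNO and 303 ± 35.05 in F2 IUO. The log2 fold change to SAL was -0.47 ± 0.13 for IUO (limma adjusted p = 0.461, exact permutation p = 0.0286) and -0.46 ± 0.16 for PNO (limma adjusted p = 0.391, exact permutation p = 0.0571). The same contrasts in F1 gave -0.04 ± 0.13 for IUO and -0.11 ± 0.15 for PNO. The difference between generations was -0.43 ± 0.18 for IUO against SAL (limma adjusted p = 0.924) and -0.35 ± 0.22 for PNO against SAL (limma adjusted p = 0.9998). For the first of these differences Glul was the 1 member of 32 with an unadjusted p under 0.05, where 5.15% of all genes had one (0% adjusted). Glul lost it with upper-quartile rescaling and with the replicate number as a block. Leaving out 1 library at a time, the count of members ranged from 0 to 8, where 3.873 to 7.309% of all genes passed. The share of members was above that of all genes in 6 of these 16 fits.

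Slc25a18, a mitochondrial glutamate carrier, was at 30.1, 35.5, 44.2 and 36.02 FPKM in F1 SAL, 30.8, 28.3, 40.5 and 34.2 FPKM in F1 PNO and 26.6, 31.6, 38.3 and 38.8 FPKM in F1 IUO. In F2 it was at 45.5, 39.8, 38.6 and 45.6 FPKM in SAL, 37.5, 27.2, 38.5 and 38.1 FPKM in PNO and 44.8, 36.7, 55.9 and 39.2 FPKM in IUO. F2 IUO and F1 IUO overlapped and differed by 0.38 ± 0.17 (limma adjusted p = 0.332, exact permutation p = 0.114). That difference lost its unadjusted p under 0.05 without F1 IUO 1 (0.27), F1 IUO 2 (0.35), F2 IUO 1 (0.37) or F2 IUO 3 (0.26), each given as a log2 fold change. It also lost it with no filter (0.38), a filter at 1 FPKM (0.38), upper-quartile rescaling (0.38) or the ribosomal protein level as a covariate (0.33). Slc1a3, the glutamate transporter that immature astrocytes already express, had the smallest spread of the members, from 114 to 167 FPKM, and 0 of its 9 comparisons reached an unadjusted p under 0.05 in limma. Slc1a2 and Slc1a3 thus differed in spread, with an SD over 24 libraries of 0.793 and 0.145 on the log2 scale.

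Slc4a4 encodes the sodium bicarbonate cotransporter of astrocytes, which couples pH to activity. In F1 it was at 17.03, 17.3, 17.5 and 16.03 FPKM in SAL, 12.9, 10.9, 10.7 and 14.6 FPKM in PNO and 17.6, 18.8, 23.7 and 20.2 FPKM in IUO. The PNO libraries lay below the SAL libraries and the IUO libraries above both, with no overlap between any 2 of the F1 groups. In F2 the values were 16.5, 10.95, 18.04 and 13.9 FPKM in SAL, 1.19, 14.3, 12.5 and 14.5 FPKM in PNO and 9.56, 12.4, 20.8 and 4.36 FPKM in IUO. F2 PNO 1 and F2 IUO 4, the libraries with the least Slc1a2, also had the least Slc4a4. F1 PNO (12.3 ± 1.83 FPKM, SD, n = 4) was lower than F1 SAL (16.96 ± 0.650 FPKM) by a log2 fold change of -0.47 ± 0.12 (limma adjusted p = 0.231, exact permutation p = 0.0286). F1 IUO (20.1 ± 2.66 FPKM) was higher than F1 PNO by 0.70 ± 0.14 (limma adjusted p = 0.0884, exact permutation p = 0.0286). Against F1 SAL the IUO value was 0.23 ± 0.11 (limma adjusted p = 0.999, exact permutation p = 0.0286). When all 24 libraries shared 1 estimate of the spread, the unadjusted p was above 0.05 in both of these F1 comparisons with PNO, with unchanged fold changes.

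F2 IUO was lower in Slc4a4 than F1 IUO by -0.96 ± 0.38 (limma adjusted p = 0.291, exact permutation p = 0.114), with 1 library, F2 IUO 3, inside the F1 range. The log2 fold change was -0.56 without F2 IUO 4, -0.93 without F2 IUO 1, -0.99 without F1 IUO 2, -0.88 without F1 IUO 3 and -0.96 without F1 IUO 4, and in each case the unadjusted p was above 0.05. So it was with all 24 libraries in 1 fit (-0.96), with the ribosomal protein level as a covariate (-0.02) and without the 3 libraries highest in it (-0.56). Of the other transport genes, the GABA transporter Slc6a11 ranged from 27.4 to 106 FPKM and was lowest in the same pair of libraries, F2 PNO 1 and F2 IUO 4. Atp1b2, a subunit of the sodium pump, ranged from 223 to 393 FPKM and the neutral amino acid transporter Slc7a10 from 21.6 to 37.9 FPKM. In none of the 9 comparisons did these 3 genes have an unadjusted p under 0.05 in limma, and no adjusted p was under 0.05 either.

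Aqp4, the water channel of the end-feet, was at 101, 103, 84.5 and 90.3 FPKM in F1 SAL, 98.8, 105, 95.1 and 86.8 FPKM in F1 PNO and 79.9, 102, 101 and 101 FPKM in F1 IUO. In F2 it was at 82.7, 71.6, 89.4 and 91.3 FPKM in SAL, 69.6, 121, 103 and 89.9 FPKM in PNO and 66.6, 72.2, 109 and 57.6 FPKM in IUO. The F1 groups differed by less than their spread, and F2 IUO held the lowest value as well as the second highest of the 24. The largest difference of Aqp4 was -0.37 ± 0.19 between F2 IUO and F1 IUO (limma adjusted p = 0.382, exact permutation p = 0.143). Mlc1 and Hepacam, whose proteins form a complex at astrocyte contacts, ranged from 42.7 to 65.6 and from 9.85 to 28.00 FPKM, and neither had an unadjusted p under 0.05 in limma in any of the 9 comparisons.

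Gja1, the main gap junction connexin of astrocytes, was at 89.3, 92.9, 87.1 and 94.3 FPKM in F2 SAL, 118, 111, 97.6 and 109.6 FPKM in F2 PNO and 80.7, 81.1, 105 and 72.7 FPKM in F2 IUO. In F1 it was at 90.95, 100.3, 98.9 and 80.4 FPKM in SAL, 100.1, 92.5, 81.7 and 84.9 FPKM in PNO and 94.4, 98.6, 84.7 and 93.9 FPKM in IUO. All 4 F2 PNO libraries were above all 4 F2 SAL libraries, and only F2 IUO 3 among the F2 IUO libraries reached the PNO range. Gja1 was at 109 ± 8.28 FPKM (SD, n = 4) in F2 PNO, higher than the 90.9 ± 3.32 FPKM in F2 SAL by 0.26 ± 0.09 (limma adjusted p = 0.408, exact permutation p = 0.0286). It was lower in F2 IUO than in F2 PNO by -0.37 ± 0.13 (limma adjusted p = 0.636, exact permutation p = 0.0571), and higher in F2 PNO than in F1 PNO by 0.28 ± 0.11 (limma adjusted p = 0.948, exact permutation p = 0.0571).

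The unadjusted p of Gja1 was above 0.05 for F2 PNO against F2 SAL without F2 SAL 1 (log2 fold change 0.25) or F2 SAL 3 (0.24), or without the 3 libraries highest in ribosomal protein genes (0.23). That was also so with the replicate number as a block. For F2 IUO against F2 PNO the unadjusted p was above 0.05 without F2 IUO 4 (-0.30), without those 3 libraries (-0.26) or with that block. For F2 PNO against F1 PNO the same held without F1 PNO 3 (0.23), F1 PNO 4 (0.25), F2 PNO 1 (0.24) or F2 PNO 2 (0.27), with upper-quartile rescaling (0.33), and with thalamus markers (0.19) or the ribosomal protein level (0.24) as a covariate, and without those 3 libraries (0.24). Gja1 was the 1 member with an unadjusted p under 0.05 for the difference between generations of PNO against SAL (0.30 ± 0.13, limma adjusted p = 0.9998), where 4.06% of all genes had one (0% adjusted). The same held for IUO against PNO (-0.42 ± 0.16, limma adjusted p = 0.833), where 5.76% of all genes had one (0% adjusted). With thalamus markers as a covariate Gja1 lost it for PNO against SAL. Leaving out 1 library at a time, the count of members was 0 to 2 for PNO against SAL (3.354 to 7.006% of all genes). It was 1 to 5 for IUO against PNO (4.432 to 12.21% of all genes). The share of members was above that of all genes in 2 and 3 of 16 such fits. Gjb6, the second astrocyte connexin, ranged from 3.81 to 16.1 FPKM, and its lowest and highest libraries were both in F2.

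Among the immature or reactive genes, Gfap was at 65.3, 53.95, 39.8 and 68.97 FPKM in F1 SAL, 69.7, 39.9, 113 and 44.6 FPKM in F1 PNO and 40.2, 49.5, 65.3 and 73.3 FPKM in F1 IUO. In F2 it was at 58.9, 60.3, 67.3 and 92.2 FPKM in SAL, 78.1, 55.5, 72.3 and 57.7 FPKM in PNO and 65.5, 48.9, 77.8 and 74.7 FPKM in IUO. The groups of Gfap overlapped throughout, and F1 PNO 3 alone exceeded 100 FPKM. The largest of its 9 fold changes was 0.30 ± 0.20, between F2 SAL and F1 SAL (limma adjusted p = 0.695, exact permutation p = 0.314). Between exposed and saline pups of one generation its fold changes lay between -0.07 and 0.13.

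Vim, a filament gene shared by radial glia, endothelium and reactive astrocytes, was at 55.9, 50.6, 48.5 and 40.1 FPKM in F1 SAL, 62.3, 51.7, 82.1 and 48.2 FPKM in F1 PNO and 48.9, 45.4, 49.96 and 69.6 FPKM in F1 IUO. In F2 it was at 45.4, 56.5, 55.1 and 56.3 FPKM in SAL, 53.6, 51.1, 39.8 and 55.8 FPKM in PNO and 76.9, 36.3, 67.2 and 47.6 FPKM in IUO. F1 PNO 3, the library highest in Gfap, was also highest in Vim. The largest fold change of Vim, 0.30 ± 0.17 between F1 PNO and F1 SAL, had a limma adjusted p of 0.453 (exact permutation p = 0.200).

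Fabp7, a fatty acid binding protein of radial glia and young astrocytes, was at 160.5, 173, 283 and 214 FPKM in F1 SAL, 205, 270.1, 236 and 214 FPKM in F1 PNO and 172, 170.3, 152 and 169 FPKM in F1 IUO. In F2 it was at 249, 263, 149 and 197 FPKM in SAL, 232, 228, 234 and 222 FPKM in PNO and 266, 128, 265 and 167 FPKM in IUO. The F1 IUO libraries were close together and all below the F1 PNO libraries, while F1 SAL spanned both. Fabp7 averaged 166 ± 9.43 FPKM (SD, n = 4) in IUO and 231 ± 29.1 FPKM in PNO of F1, a log2 fold change of -0.47 ± 0.11 (limma adjusted p = 0.117, exact permutation p = 0.0286). Against F1 SAL it was -0.29 ± 0.17 in IUO (limma adjusted p = 0.999) and 0.18 ± 0.18 in PNO (limma adjusted p = 0.685). The growth factor receptor Fgfr3 ranged from 5.31 to 26.5 FPKM and was higher in IUO pups of F1 than in PNO by 0.58 ± 0.20 (limma adjusted p = 0.211, exact permutation p = 0.0857). With all 24 libraries in 1 fit Fgfr3 lost its unadjusted p under 0.05 (0.58), and it kept it in the other 15 of 16 alternatives. Among these its log2 fold change was 0.93 with thalamus markers as a covariate and 0.40 without F1 IUO 4. Sox9, a transcription factor of the astrocyte lineage, ranged from 6.10 to 15.6 FPKM and had no unadjusted p under 0.05 in the 9 comparisons in limma.

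The mature and the immature or reactive genes were set side by side as medians of their fold changes, beside the median of all genes tested. Over the 24 libraries Fgfr3, of the second set, had an r of 0.89 with the mature gene Hepacam and of -0.031 with Gfap. The medians therefore compare 2 named sets and are no measure of maturity or reactivity. With F1 IUO set against F1 SAL the median was 0.11 for the 26 mature genes, 0.02 for the 6 immature or reactive genes and 0.01 for all genes. For F1 PNO against F1 SAL these medians were -0.08, 0.05 and -0.05, and for F1 IUO against F1 PNO they were 0.15, -0.06 and 0.03. In F2 they were -0.09, -0.07 and -0.08 for IUO against SAL, -0.09, -0.08 and -0.08 for PNO against SAL, and 0.01, -0.04 and -0.01 for IUO against PNO. Across generations they were 0.14, 0.06 and -0.02 in SAL, -0.04, -0.02 and -0.09 in IUO, and 0.08, -0.02 and -0.06 in PNO. Rescaling to an equal upper quartile moved the median of all genes by more than 0.1 in 3 comparisons, to -0.11 for F1 IUO against F1 SAL, -0.08 for F1 IUO against F1 PNO and -0.17 for F2 IUO against F2 PNO. The median of the 32 members then was -0.03, -0.01 and -0.16 in these 3 comparisons, against 0.10, 0.11 and 0.01 as deposited. In F2 PNO against F2 SAL it was 0.0034 after rescaling and -0.09 as deposited (all genes 0.0079 and -0.0781), so the sign of the member median depended on the scaling in 4 comparisons. Rescaling moves all genes of a library alike, so these changes of sign are not particular to the members. The mature genes exceeded the immature or reactive ones by 0.67 ± 0.15 (mean log2 level, SD, n = 4) in F1 IUO, 0.59 ± 0.10 in F1 SAL and 0.47 ± 0.11 in F1 PNO. In F2 this excess was 0.60 ± 0.19 in IUO, 0.58 ± 0.18 in SAL and 0.53 ± 0.08 in PNO, within the spread of the groups.

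Aldoc, a glycolytic aldolase, ranged from 304 to 541 FPKM, the fatty acid activating enzyme Acsbg1 from 53.4 to 88.3, the folate enzyme Aldh1l1 from 4.58 to 11.6 and the glycogen regulator Ppp1r3c from 6.38 to 11.95 FPKM. None of these 4 genes of metabolism had an unadjusted p under 0.05 in limma in the 9 comparisons. Of the secreted products, Cst3 and Apoe were the 2 most abundant members. Apoe, a lipid carrier, ranged from 1078 to 1989 FPKM and was higher in IUO than in PNO of F1 by 0.41 ± 0.17 (limma adjusted p = 0.284, exact permutation p = 0.0571). Apoe kept an unadjusted p under 0.05 in 8 of 16 alternatives. Among these its log2 fold change was 0.63 with thalamus markers and 0.55 with the ribosomal protein level as a covariate. It lost it without F1 PNO 1 (0.35), F1 PNO 2 (0.37), F1 PNO 4 (0.40), F1 IUO 2 (0.41), F1 IUO 3 (0.36) or F1 IUO 4 (0.33), with no filter (0.41) and with upper-quartile rescaling (0.28). Microglia also make Apoe, and 3 of 8 microglia genes (C1qa, C1qb and Csf1r) were higher in the same comparison at an unadjusted p under 0.05, 0 of them after adjustment in limma. Over 24 libraries Apoe went with the hypothalamus markers at r = 0.602 (permutation p = 0.0022, adjusted 0.039) and rho = 0.626 (permutation p = 0.0014, adjusted 0.025), with r = 0.568 without the 2 farthest libraries and r = 0.383 after centring each group, and the part of either in the Apoe difference was not tested. Cst3 ranged from 1725 to 4257 FPKM, the matrix protein Sparcl1 from 267 to 664, the chaperone Clu from 170.0 to 547 and angiotensinogen (Agt) from 43.2 to 139 FPKM. Cst3 was highest in F2 PNO 1, as was the calcium binding protein S100b (230.4 to 490.0 FPKM). The coagulation factor gene F3 ranged from 2.52 to 9.70 FPKM, the neurotensin receptor Ntsr2 from 23.3 to 50.3 and Ndrg2 from 223 to 438 FPKM. Over the 6 groups together, 4 of 32 members (Slc1a2, Glul, Apoe and Gja1) had an unadjusted p under 0.05, where 16.6% of all genes did (0.141% adjusted). The limma adjusted p of these 4 lay between 0.259 and 0.285.

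Across the 24 libraries the members did not move as 1 block. The median r over the 496 pairs of members was 0.22, 95 pairs were above 0.5 and 125 were below 0. These are given as a description, since libraries of a group share their treatment. The highest values joined Fgfr3 with Hepacam (0.89), Fgfr3 with Slc6a11 (0.89) and Slc1a2 with Slc4a4 (0.88). Other high values joined Aldoc with Ndrg2 (0.85), S100b with Cst3 (0.815) and Ndrg2 with Apoe (0.81). Among the lowest values were Slc4a4 against Cst3 at -0.69 and Slc1a2 against Cst3 at -0.64. Gfap had its highest r to Ntsr2 (0.654), S100b (0.548), Sparcl1 (0.536), Clu (0.519), Vim (0.496), Acsbg1 (0.493) and Apoe (0.482). Its r was 0.451 to Ndrg2, 0.417 to Cst3, 0.416 to Aldoc, -0.218 to Slc1a2 and -0.26 to Slc4a4. Among 10868 genes outside the list, each with a symbol of its own and at least 1 FPKM in every library, those most like Slc1a2 over the 24 libraries were Zfp106 (r = 0.96), Psd3 (0.96), Ppp1r9a (0.95), Huwe1 (0.95) and Nsd1 (0.95). Those most like Aqp4 were Gcc2 (0.875), Ssfa2 (0.87), Amot (0.85), Xpot (0.83) and Dhx36 (0.83). Gfap was most like Agpat4 (0.79), Fam207a (0.77), Id3 (0.76), Hopx (0.74) and C1qtnf5 (0.72).

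The 2 libraries lowest in Slc1a2 and Slc4a4 were among the 3 highest in ribosomal protein genes. The mean log2(FPKM + 0.1) of 77 cytosolic ribosomal protein genes was highest in F2 PNO 1 (8.30), F2 SAL 2 (8.22) and F2 IUO 4 (8.16), and ran from 7.52 to 7.88 in F1 and from 7.53 to 8.30 in F2. For Slc1a2 the relation to this level over 24 libraries was r = -0.695 (permutation p = 0.0003, adjusted 0.0024) and rho = -0.566 (permutation p = 0.0044, adjusted 0.051). It was -0.597 without the 2 farthest libraries and -0.586 after centring each group. For Slc4a4 it was r = -0.702 (permutation p = 0.00023, adjusted 0.0024) and rho = -0.534 (permutation p = 0.0079, adjusted 0.059), with r = -0.597 without the 2 farthest libraries. Cst3 went the other way, with r = 0.81 (permutation p = 3e-05, adjusted 0.00096) and rho = 0.755 (permutation p = 7e-05, adjusted 0.0022), and r = 0.684 without the 2 farthest libraries. Of the 32 relations computed, 9 had an adjusted p under 0.05 for r, 3 positive and 6 negative, and for rho only that of Cst3 did. The most negative r was that of Slc6a11 (-0.724, permutation p = 0.00016, adjusted 0.0024). The others among the 9 were negative for Fgfr3 (-0.662), F3 (-0.633) and Aqp4 (-0.625), and positive for S100b (0.593) and Fabp7 (0.497). The labels give no batch within which to repeat them.

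**Figure D3:**
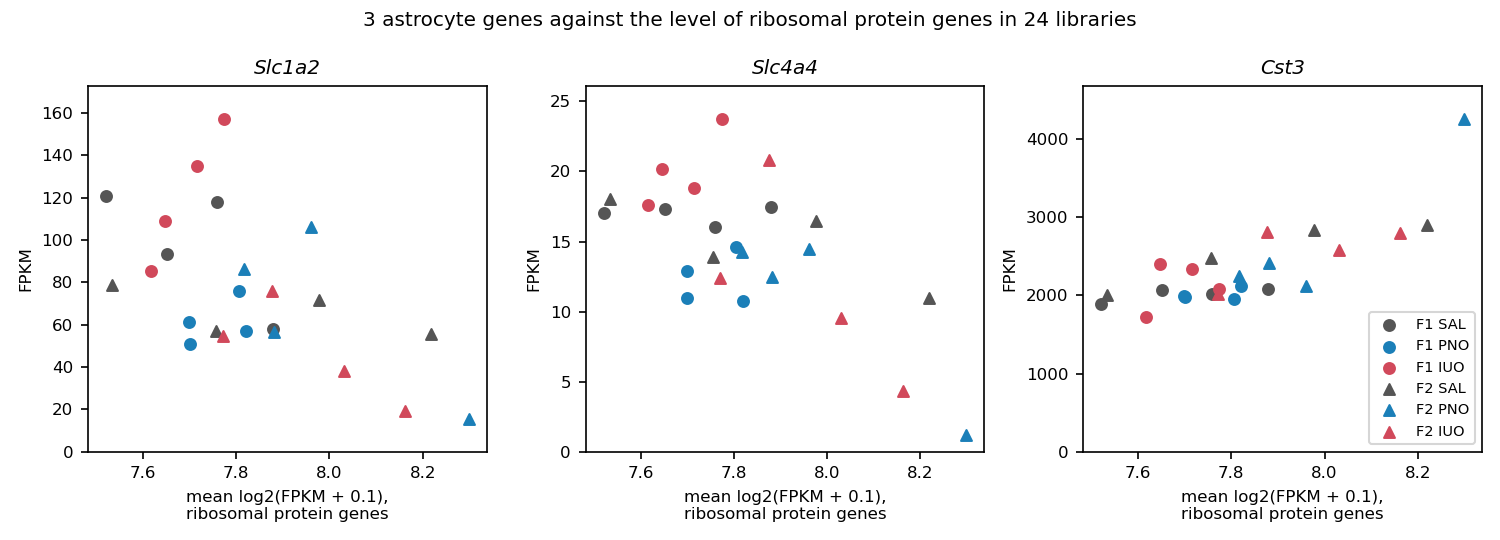
FPKM of Slc1a2, Slc4a4 and Cst3 (vertical axes, from 0) against the mean log2(FPKM + 0.1) of 77 ribosomal protein genes (horizontal axes) in the 24 libraries, F1 as circles and F2 as triangles. The library farthest right, F2 PNO 1 at 8.30, had the least Slc1a2 and Slc4a4 and the most Cst3.

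With the ribosomal protein level as a covariate, chosen after seeing the data, the fold change of F2 IUO against F1 IUO was -0.71 for Slc1a2 and -0.02 for Slc4a4, and 0 of 32 members had an unadjusted p under 0.05, where 2.767% of all genes did (limma; 0 members adjusted). The F1 differences between IUO and PNO kept an unadjusted p under 0.05 for Slc1a2 and Slc4a4 with that covariate. F1 PNO (7.76 ± 0.07, SD, n = 4) and F1 IUO (7.69 ± 0.07) lay close together in the ribosomal protein level. What part RNA quality or library preparation had in these differences was not tested.

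F1 PNO libraries also held more RNA of thalamus markers. The summed FPKM of 6 thalamus genes, of which Tcf7l2 was the most abundant, was, in F1, 117, 304, 132 and 211 for PNO, 151, 88.4, 30.99 and 17.7 for SAL and 25.2, 31.5, 84.9 and 141 for IUO. All 6 had a higher level in F1 PNO than in F1 SAL at an unadjusted p under 0.05, and 5 of 6 were lower in F1 IUO than in F1 PNO (0 of 6 had a limma adjusted p under 0.05 in either comparison). Lhx9 was listed at 0 in 3 of the 24 libraries, and the other 5 genes in none. Striatal projection neuron genes summed to 771, 539, 653 and 749 FPKM in F1 PNO and 1137, 1179.5, 851 and 837 FPKM in F1 IUO, and 6 of these 10 genes were higher in F1 IUO at an unadjusted p under 0.05, 0 of them after adjustment in limma. In F1 SAL the sum was 505, 1105, 1339 and 962 FPKM. In the same comparison of F1 IUO with F1 PNO, 5 of 6 hypothalamus genes tested were higher at an unadjusted p under 0.05, with a median log2 fold change of 3.56, and Avp had a limma adjusted p of 0.0468. The summed FPKM of the 7 hypothalamus genes found, with Avp the most abundant, was 95.4, 131, 43.8 and 158 in F1 IUO, 3.99, 5.66, 12.7 and 10.1 for PNO and 17.2, 16.2, 57.3 and 10.5 for SAL. Of these 7, Sim1 was listed at 0 in 7 of the 24 libraries, Pmch in 3, Otp in 2 and Agrp in 1. Against F1 SAL, 4 of 6 were higher in IUO and 3 of 6 lower in PNO at an unadjusted p under 0.05, 0 of them after adjustment in limma. In that comparison of F1 PNO with F1 SAL, where Slc1a2 and Slc4a4 were lower, 2 of 5 precursor genes (median -0.25), 2 of 8 microglia genes (-0.22), 1 of 10 striatal (-0.49) and 1 of 6 ependymal genes (0.19) were lower, and 3 of 10 pan-neuronal (0.08) and 1 of 4 endothelial genes (0.15) higher, in the same sense. Also higher in IUO than in PNO were 3 of 5 genes of oligodendrocyte precursors, and 3 of 10 pan-neuronal genes were lower (unadjusted p under 0.05, 0 adjusted in limma). Precursor genes summed to 151, 179, 193 and 208 FPKM in IUO and 124, 120.1, 164 and 133 FPKM in PNO, with Olig1 the most abundant, and microglia genes to 180.4, 221, 206 and 210.1 and 144, 138, 171 and 161 FPKM, with C1qb the most abundant. In F1 SAL precursor genes summed to 146, 156, 204 and 161 FPKM and microglia genes to 150.2, 187, 197 and 212 FPKM. Pan-neuronal genes summed to 2617, 2309.9, 2012 and 2508 FPKM in F1 SAL and 2551, 2496, 2914 and 2827 FPKM in F1 PNO, with Stmn2 the most abundant. None of these precursor, microglia and pan-neuronal genes was at 0 in any library. With the thalamus markers as a covariate the fold changes of Slc1a2 and Slc4a4 kept their unadjusted p under 0.05 in both F1 comparisons. How far Slc1a2, Slc4a4, Fabp7, Fgfr3 and Apoe differed with the other markers was not tested.

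Marker levels of neighbouring tissues or cells were set against the 32 members, 192 relations in all. For thalamus, 3 members had an adjusted p under 0.05 for r and 3 for rho, led by Gjb6 with r = 0.724 (permutation p = 7e-05, adjusted 0.0067) and rho = 0.631 (permutation p = 0.0012, adjusted 0.025). It had r = 0.612 without the 2 farthest libraries. Hypothalamus markers were related to 4 members by r and 8 by rho, led by Agt with r = 0.685 (permutation p = 0.00025, adjusted 0.016) and rho = 0.694 (permutation p = 0.00024, adjusted 0.0092). Agt had r = 0.676 without the 2 farthest libraries. Mural and meningeal markers were related to 2 members by r, Glul and F3, and to 4 by rho. Glul gave r = 0.616 (permutation p = 0.0014, adjusted 0.039) and rho = 0.606 (permutation p = 0.002, adjusted 0.028), and r = 0.61 without the 2 farthest libraries. In F2, where Glul was lower in both exposed lineages, the summed FPKM of the 8 mural and meningeal genes was 81.9, 75.7, 109 and 117 in SAL, 62.5, 76.8, 68.6 and 98.5 in PNO and 70.2, 67.6, 94.7 and 62.7 in IUO, with Rgs5 the most abundant and none listed at 0. Of these 8 genes, 1 was lower at an unadjusted p under 0.05 in each exposed lineage, with 0 after adjustment in limma, and their part in the Glul result was not tested. Other markers moved in the comparisons where Glul and Gja1 did, at an unadjusted p under 0.05 (0 of them adjusted in limma). In F2 IUO against F2 SAL, 4 of 6 cortex genes were higher (median 0.79), of 10 pan-neuronal genes 1 was higher and 1 lower (0.03), and 3 of 10 striatal projection neuron genes (-0.51), 2 of 8 microglia genes (-0.28) and 2 of 5 precursor genes (-0.27) lower. In F2 PNO against F2 SAL, 3 of 10 pan-neuronal genes (-0.32), 2 of 8 microglia genes (-0.28) and 2 of 5 precursor genes (-0.44) were lower, and 1 of 4 endothelial (0.03) and 1 of 6 hypothalamus genes (-0.74) higher. Of 3 blood entries tested, the 2 that share the symbol Hba-a2 were higher in each exposed lineage (1.97 and 1.66 in IUO, 1.58 and 1.42 in PNO), and Hbb passed in neither. Beside Glul, the cortex genes summed in F2 to 170.5, 220.3, 134 and 169.7 FPKM in SAL, 21.9, 185, 125 and 307 in PNO and 297, 349, 175 and 285 in IUO (Slc17a7 the most abundant, Emx1 at 0 in 1 of 24 libraries), and the blood genes to 36.1, 20.1, 13.2 and 16.8 FPKM in SAL, 30.6, 195, 41.1 and 47.3 in PNO and 92.5, 27.3, 87.1 and 120.4 in IUO (Hba-a2 the most abundant, Alas2 at 0 in 8 libraries and Hbb in 2). The F2 sums were 235, 228, 176 and 243 FPKM in SAL, 184, 184, 167 and 187 in PNO and 163, 157, 175 and 237 in IUO for microglia and 205, 173, 184 and 212 FPKM in SAL, 139.5, 159.7, 189 and 135 in PNO and 157, 147, 206 and 122 in IUO for precursors. Striatal genes summed to 1031, 1013, 840.1 and 789 FPKM in F2 SAL, and pan-neuronal genes to 2416, 2237, 2614 and 2794 FPKM in F2 SAL and 1579, 2191, 2389.8 and 1966 FPKM in F2 PNO. What these had to do with Glul or Gja1 was not tested.

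Gja1 also differed between F2 PNO and F1 PNO, where 4 of 10 pan-neuronal genes (median -0.37), 3 of 6 thalamus genes (-1.25) and 2 of 8 mural and meningeal genes (-0.41) were lower at an unadjusted p under 0.05 (0 adjusted in limma). There 3 of 10 striatal projection neuron genes (0.23) and 1 of 6 hypothalamus genes (1.19) were higher, and of 8 microglia genes 2 were higher and 1 lower (0.21). In F2 IUO against F2 PNO, where Gja1 was lower, 3 of 10 pan-neuronal genes (0.38) and 1 of 6 hypothalamus genes (1.44) were higher in the same sense. Beside the Gja1 values, thalamus genes summed to 68.8, 98.6, 201 and 30.7 FPKM in F2 PNO, striatal genes to 1066, 812, 751 and 853 FPKM in F2 PNO, and mural and meningeal genes to 131, 82.8, 148 and 64.5 FPKM in F1 PNO. The part of these markers in the Gja1 differences was not tested.

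Between F2 IUO and F1 IUO, where Slc1a2 and Slc4a4 were lower, 5 of 10 striatal projection neuron genes (median -0.64), 3 of 5 precursor genes (-0.60), 2 of 4 endothelial genes (-0.37), 2 of 8 mural and meningeal genes and 1 of 8 microglia genes were lower at an unadjusted p under 0.05. In the same comparison 3 of 10 pan-neuronal genes were higher and 1 lower (median 0.11), and 2 of 6 cortex genes higher (0.36), with 0 adjusted in limma for each of these lists. Beside the Slc1a2 values, striatal genes summed in F2 IUO to 408, 799.8, 450.1 and 1009 FPKM (Ppp1r1b the most abundant), and pan-neuronal genes to 2347, 2197, 2240.0 and 2491 FPKM in F1 IUO and 2974, 2909, 2652 and 2643 FPKM in F2 IUO (Stmn2 the most abundant), with none of either at 0. Cortex genes summed in F1 IUO to 198, 219, 199 and 228 FPKM, and endothelial genes to 41.8, 53.9, 44.4 and 58.5 FPKM in F1 IUO and 41.9, 46.9, 55.7 and 52.9 FPKM in F2 IUO (Itm2a the most abundant, Cldn5 at 0 in 22 of 24 libraries). Slc1a2 was also lower in F2 SAL than in F1 SAL. In that comparison 1 of 5 precursor genes was higher (median 0.08) and 1 of 10 pan-neuronal genes lower (0.04) at an unadjusted p under 0.05. After adjustment in limma 0 of them passed. The part of these markers in the differences of Slc1a2, Slc4a4 and Slc25a18 was not tested. With the cortex markers 0 members had an adjusted p under 0.05 for r and 2 for rho (Atp1b2 and Agt, both negative), and with the pan-neuronal markers 0 for either.

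Choroid plexus RNA was very uneven over the libraries, so only the rank correlation rho is given for it and no pooled r. Ttr, its most abundant marker, was at 8011 FPKM in F1 IUO 3, 6696 in F2 PNO 4, 12103 in F2 IUO 1, 5121 in F1 SAL 1 and 3742 in F1 PNO 3. It was at 973 in F1 IUO 4, at 245 in F1 PNO 1 and at most 77.3 in the other 17. The first 5 libraries were also the 5 highest in Clu, at 472, 489, 547, 378 and 401 FPKM in the same order. Clu is made by choroid plexus epithelium as well as by astrocytes, and its level in the other 19 libraries was at most 361 FPKM. Of the 5 libraries highest in F3, 3 were among these 5, and of the 5 highest in Vim 2 were, with F1 PNO 3 the highest of all in Vim. The overlap was also 2 for Slc1a2 and for Sparcl1. By rank over 24 libraries, 3 members went with the choroid plexus markers at an adjusted p under 0.05. Their rho was 0.717 for Vim (permutation p = 0.00017), 0.712 for F3 (permutation p = 0.00024) and 0.706 for Clu (permutation p = 0.00012), each adjusted to 0.0092. For Slc1a2 rho was 0.26 (permutation p = 0.22, adjusted 0.53) and for Sparcl1 0.373 (permutation p = 0.073, adjusted 0.28). How much of the Clu, F3 or Vim came from choroid plexus was not tested.

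Fgfr3 and Apoe above, and the genes named next from outside the list, were chosen after their values were seen. Of 25 other astrocyte genes tested, 1 was higher and 0 lower at an unadjusted p under 0.05 in F1 IUO against F1 SAL, 2 higher and 3 lower in F1 PNO against F1 SAL, and 4 higher and 0 lower in F1 IUO against F1 PNO, where 3.91%, 13.9% and 16.5% of all genes passed in either direction. In F2 the counts were 0 higher and 1 lower for IUO against SAL, 1 higher and 3 lower for PNO against SAL, and 1 higher and 0 lower for IUO against PNO, where 8.49%, 10.8% and 7.07% of all genes passed. These shares also belong beside the counts of reactive and radial glia genes below. The potassium channel Kcnj10 was at 14.9, 14.8, 10.98 and 11.7 FPKM in F1 SAL, 8.59, 11.7, 11.4 and 12.8 FPKM in F1 PNO and 14.7, 15.7, 17.3 and 16.3 FPKM in F1 IUO. In F1 it was higher in IUO than in PNO by 0.53 ± 0.14 (limma adjusted p = 0.135), and every IUO library was above every PNO library, while 14 of the 25 genes were higher, with a median of 0.05. Its lowest libraries of all were F2 PNO 1 (2.51 FPKM) and F2 IUO 4 (3.08 FPKM), as for Slc1a2 and Slc4a4. Low levels in these libraries were not particular to astrocyte genes. There the precursor gene Gpr17 was at 15.6 and 19.6 FPKM (median of all libraries 43.6) and the neuronal gene Map2 at 3.57 and 39.1 FPKM (median 84.8). Other genes were not low there, such as Mbp at 1738 and 675 FPKM (median 792). Cbs, an enzyme of sulfur amino acid metabolism, was at 28.3, 18.7, 25.8 and 23.4 FPKM in F2 SAL, 15.04, 12.2, 11.2 and 14.6 FPKM in F2 PNO and 20.4, 17.8, 27.9 and 14.02 FPKM in F2 IUO. All F2 PNO libraries were below all F2 SAL libraries, with a log2 fold change of -0.85 ± 0.16 (limma adjusted p = 0.226), while the median of the 25 genes was -0.08, as for all genes.

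Reactive astrocyte genes numbered 20 or 21 tested per comparison, and 0 had a limma adjusted p under 0.05. Unadjusted, 1 was higher and 0 lower in F1 PNO against F1 SAL, 0 higher and 2 lower in F1 IUO against F1 PNO, 1 higher and 1 lower in F2 IUO against F2 SAL, and 3 higher and 0 lower in F2 PNO against F2 SAL. There were 0 in F1 IUO against F1 SAL and 0 in F2 IUO against F2 PNO. Across generations 1 was higher and 0 lower in SAL, 1 higher and 2 lower in IUO, and 2 higher and 1 lower in PNO. There 8.48%, 15.0% and 4.76% of all genes passed. Lcn2 was the gene higher in F2 IUO than in F2 SAL (0.69 ± 0.23, limma adjusted p = 0.543). It was also higher in F2 PNO (0.75 ± 0.23, limma adjusted p = 0.374), with overlap in both. Its generation differences against SAL were 0.97 ± 0.31 for IUO and 0.86 ± 0.31 for PNO (limma adjusted p = 0.924 and 0.9998). Whatever their p, 7 of 21 reactive genes were higher in F2 IUO than in F2 SAL (median -0.28, all genes -0.08) and 11 of 21 in F2 PNO (median 0.04, all genes -0.08). Several of them lay near the floor, with median levels of 0.12 FPKM for Cxcl10, 0.135 for Steap4, 0.155 for Tgm1 and 0.175 for Cd109. Steap4 was at 0 in 4 libraries, and Cxcl10 and Osmr in 3 each. C3 and Ptx3, both among the 3 higher in F2 PNO, had medians of 0.325 and 0.67 FPKM. These counts and medians thus rest in part on values close to the 0.1 that was added. Of 11 radial glia and progenitor genes, 0 passed in each F1 comparison, 2 were higher and 0 lower in F2 IUO against F2 SAL, 2 higher and 1 lower in F2 PNO against F2 SAL, and 1 higher and 1 lower in F2 IUO against F2 PNO. Hes5, a Notch target of radial glia, was lower in F2 PNO than in F2 SAL by -0.95 ± 0.16 on the log2 scale (limma adjusted p = 0.163), at 7.51, 10.8, 10.9 and 9.36 FPKM against 20.8, 16.3, 17.02 and 20.5 FPKM, with no overlap. It went against its list, of which 9 of 11 genes were higher in F2 PNO (median 0.31, all genes -0.08).

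RefSeq promoters of assembly GRCr8, from 250 bases before to 50 after each gene start, were matched by symbol for 28 of the 32 members. Short motifs were counted on both strands in 33469 promoters of 27457 genes. The NFI site TTGGCA was in a promoter of 7 of the 28 members and of 14.7% of all genes, and the SOX site CATTGT in 0 of 28 and in 14.1% of all genes. The STAT site TTCCNGGAA, where N is any base, was in 1 of 28 members (Ppp1r3c) and in 1.39% of all genes. The CCAAT box (CCAAT, which can overlap the NFI site) was in 16 of 28 (57.1%) and in 39.6% of all genes. The GC box GGGCGG was likewise in 16 of 28 (57.1%) and in 36.0% of all genes. These matches are a description of the letters in these windows. The promoters of Slc1a2, Slc4a4 and Fgfr3 are shown because their RNA moved together over the libraries (r = 0.88 for Slc1a2 with Slc4a4 and 0.85 for Fgfr3 with Slc4a4). Capitals mark a GC box in Slc1a2, and a CCAAT box and 3 GC boxes, all read on the opposite strand, in Fgfr3, while the Slc4a4 window held none of the 5 motifs. For Slc1a2, which has more than 1 listed start, the upstream one is given.
Slc1a2 (chr3:109459859-109460158, plus strand): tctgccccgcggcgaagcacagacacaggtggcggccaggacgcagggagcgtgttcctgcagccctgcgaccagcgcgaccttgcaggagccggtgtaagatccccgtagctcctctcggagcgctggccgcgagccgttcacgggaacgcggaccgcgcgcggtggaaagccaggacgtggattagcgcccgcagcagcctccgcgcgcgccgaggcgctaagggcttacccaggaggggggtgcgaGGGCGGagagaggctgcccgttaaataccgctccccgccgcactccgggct
Slc4a4 (chr14:19468233-19468532, minus strand): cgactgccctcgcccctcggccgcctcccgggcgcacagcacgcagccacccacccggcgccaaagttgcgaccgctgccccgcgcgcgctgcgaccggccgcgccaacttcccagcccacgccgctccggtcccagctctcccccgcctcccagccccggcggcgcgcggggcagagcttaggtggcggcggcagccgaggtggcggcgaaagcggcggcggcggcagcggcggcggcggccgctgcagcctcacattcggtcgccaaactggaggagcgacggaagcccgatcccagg
Fgfr3 (chr14:81227160-81227459, minus strand): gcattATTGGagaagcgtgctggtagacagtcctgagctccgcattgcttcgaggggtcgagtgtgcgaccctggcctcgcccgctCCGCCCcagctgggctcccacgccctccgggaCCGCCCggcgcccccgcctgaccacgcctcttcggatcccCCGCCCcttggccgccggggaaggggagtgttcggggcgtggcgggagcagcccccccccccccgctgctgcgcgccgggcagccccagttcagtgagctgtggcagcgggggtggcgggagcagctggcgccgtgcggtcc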

How the data were processed

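RNA of 24 nucleus accumbens samples was sequenced, 4 pups in each of 6 groups. The deposited FPKM values were made by the authors with StringTie after merging all transcriptomes, and were not rescaled here. The submitters' processing notes also name HISAT2 and SAMtools. The genome build and read depth are not given in the sources used here. As these are no counts, limma 3.58.1 in R 4.3.3 (lmFit, eBayes with trend) was run on log2(FPKM + 0.1) for genes that reached 0.1 FPKM in 4 libraries, with p adjusted by Benjamini-Hochberg over all genes. Exact permutation p came from all splits of 4 against 4 libraries, and those of correlations from 100000 permutations. By rule, every library's value is given for Gfap, Aqp4, Slc1a2, Vim and Fabp7 and for the 3 members with the smallest unadjusted p in each comparison where that p is under 0.05, 9 genes in all. Members and lists were chosen with earlier results of these data known. Listed symbols not found were Dio2 and Gpc5 among other astrocyte genes, Serpina3n among reactive ones, Pecam1 and Ly6c1 among endothelial, Foxj1 among ependymal and Hba-a1 and Hbb-bs among blood genes. Alternatives were other pseudocounts, filters, scaling, pooled and blocked fits, thalamus markers as covariate and leaving out libraries. The mean of 77 ribosomal protein genes that reached 1 FPKM in all libraries was added after seeing the data. Python 3.11.15, numpy 2.4.6, pandas 2.3.3, scipy 1.17.1 and matplotlib 3.10.9 were used. The limma fit of F1 IUO against F1 SAL was tested on simulated data.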

Additional observations from a re-analysis of the deposited data

Results flagged for a closer look

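In groups of 4, a library was singled out when its gap to the nearest library was so large a share of the range that Dixon's test called it at the 0.05 level. This was so for 6 of 78 groups examined over 13 measures, where chance singles out about 1 in 20 groups, or 3.9. The lowest libraries singled out were F1 IUO 1 for Aqp4 (0.973 of the range), F2 PNO 1 for Slc4a4 (0.94), F2 PNO 2 for Slc25a18 (0.924), F2 SAL 1 for Vim (0.883) and F1 IUO 3 for Fabp7 (0.872). F1 PNO 3 was the highest in the mean level of the mature genes (0.848). No library was left out for this, and the cause was not tested.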

How the results depend on the processing

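No member had an adjusted p under 0.05 under any alternative. None of the 14 named gene and comparison pairs reversed its sign, and of their 233 values under alternatives 184 kept an unadjusted p under 0.05 and 49 lost it. Slc1a2 and Fabp7 between F1 IUO and F1 PNO, and Glul in both F2 comparisons with SAL, kept it throughout. Apart from leaving out 1 library at a time, the share of members was above that of all genes in 13 of 78 fits of the 9 comparisons and 6 of 32 of the other tests. Counts of members with an unadjusted p under 0.05 moved by over 1.5 times, or to or from 0, as follows (in brackets, the share of all genes in the same fit), and the cause was not tested. With upper-quartile rescaling, the count was 1 (4.830%) for F1 IUO against F1 SAL, 2 (9.869%) for F2 IUO against F2 SAL, 2 (8.710%) for F2 IUO against F2 PNO, 0 (5.343%) for F2 PNO against F1 PNO and 0 (4.615%) for the generation difference of IUO against SAL. With all 24 libraries in 1 fit, the count was 0 (7.345%) for F1 PNO against F1 SAL, 3 (11.96%) for F1 IUO against F1 PNO, 4 (13.86%) for F2 PNO against F2 SAL, 2 (11.57%) for F2 IUO against F2 PNO, 0 (4.246%) for F2 SAL against F1 SAL and 2 (5.193%) for F2 PNO against F1 PNO. With thalamus markers as covariate, the count was 9 (14.82%) for F1 IUO against F1 PNO, 2 (11.83%) for F2 IUO against F2 SAL, 5 (12.68%) for F2 SAL against F1 SAL, 10 (21.88%) for F2 IUO against F1 IUO, 6 (6.791%) for the generation difference of IUO against SAL, 0 (4.541%) for the generation difference of PNO against SAL and 5 (6.487%) for the generation difference of IUO against PNO. With ribosomal protein genes as covariate, the count was 5 (20.06%) for F1 PNO against F1 SAL, 2 (9.573%) for F2 IUO against F2 PNO, 3 (8.527%) for F2 SAL against F1 SAL, 0 (2.767%) for F2 IUO against F1 IUO, 2 (6.553%) for the generation difference of IUO against PNO and 2 (13.59%) for the 6 groups together. Without the 3 libraries highest in ribosomal protein genes (F2 IUO 4, F2 PNO 1 and F2 SAL 2), the count was 2 (8.245%) for F2 IUO against F2 SAL, 5 (12.66%) for F2 PNO against F2 SAL, 0 (7.878%) for F2 IUO against F2 PNO, 8 (7.995%) for F2 SAL against F1 SAL, 0 (5.223%) for F2 PNO against F1 PNO, 3 (4.883%) for the generation difference of IUO against SAL, 3 (7.291%) for the generation difference of PNO against SAL and 3 (10.31%) for the generation difference of IUO against PNO. With no filter beyond a value above 0, the count was 0 (7.509%) for F2 SAL against F1 SAL. With a filter at 1 FPKM in place of 0.1, the count was 3 (9.234%) for F2 SAL against F1 SAL. Smaller moves were from 2 to 3 (in 2) for F2 PNO against F2 SAL, from 3 to 2 (in 3) or 4 (in 2) for F2 IUO against F1 IUO and from 4 to 3 (in 2) or 6 (in 2) for the 6 groups together, with the number of alternatives in brackets. The ribosomal alternatives were chosen after seeing the data. Without those 3 libraries the median log2 fold change of members in F2 SAL against F1 SAL was 0.2488, from 0.1054.

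Leaving out 1 library at a time, the counts ranged over 0 to 7 (2.756 to 6.036%) for F1 IUO against F1 SAL, 1 to 4 (9.019 to 17.48%) for F1 PNO against F1 SAL, 4 to 10 (10.60 to 19.34%) for F1 IUO against F1 PNO, 1 to 5 (4.970 to 10.87%) for F2 IUO against F2 SAL, 1 to 4 (7.195 to 16.08%) for F2 PNO against F2 SAL, 0 to 4 (4.245 to 8.675%) for F2 IUO against F2 PNO, 0 to 8 (5.435 to 11.02%) for F2 SAL against F1 SAL, 1 to 7 (11.20 to 16.68%) for F2 IUO against F1 IUO, 0 to 2 (3.305 to 5.894%) for F2 PNO against F1 PNO, 0 to 8 (3.873 to 7.309%) for the generation difference of IUO against SAL, 0 to 2 (3.354 to 7.006%) for the generation difference of PNO against SAL, 1 to 5 (4.432 to 12.21%) for the generation difference of IUO against PNO and 0 to 5 (13.50 to 21.39%) for the 6 groups together. The share of members was above that of all genes in 17 of 72 such fits of the 9 comparisons, 6 of 8 for F1 IUO against F1 PNO, and in 11 of 72 of the other tests. The median log2 fold change of members then ranged over 0.0338 to 0.1661 for F1 IUO against F1 SAL, -0.1305 to -0.0212 for F1 PNO against F1 SAL, 0.064 to 0.2299 for F1 IUO against F1 PNO, -0.1725 to 0.0169 for F2 IUO against F2 SAL, -0.1801 to -0.0478 for F2 PNO against F2 SAL, -0.0772 to 0.0736 for F2 IUO against F2 PNO, 0.0577 to 0.2488 for F2 SAL against F1 SAL, -0.1436 to 0.0189 for F2 IUO against F1 IUO and -0.0152 to 0.0942 for F2 PNO against F1 PNO.

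With the replicate number as a block, the count was 0 (4.792%) for F2 IUO against F2 PNO and 0 (4.724%) for the generation difference of IUO against SAL. It was 7 (16.80%) for F1 IUO against F1 PNO, from 5; 3 (8.153%) for F2 PNO against F2 SAL, from 2; 3 (15.37%) for the 6 groups together, from 4. Gja1 in F2 PNO against F2 SAL and in F2 IUO against F2 PNO and Slc1a2 in F2 SAL against F1 SAL had an unadjusted p above 0.05 (limma). Same-numbered libraries had a median r of -0.007 (14 of 60 pairs over 0.1) and different-numbered ones -0.005 (52 of 180), and 3 of 24 libraries correlated best with their own number, so the numbers were not taken as pairs.

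With 4 libraries per group, small changes go unseen. Read depth and sex per pup are unknown, and counts were not used here. FPKM depend on the most abundant RNAs of a library, and all comparisons of a generation share libraries.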
